A study of Homo sapiens with 3 samples.

Results

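The S100 genes encode small calcium-binding proteins, and 10 of them, S100A4, S100A6, S100A9, S100A10, S100A11, S100A13, S100A14, S100A16, S100G and S100P, were taken by symbol from the 33538 genes of the count tables. Single-cell RNA libraries came from the 10x Genomics 3′ kit, in which a random barcode, the unique molecular identifier (UMI), lets each RNA molecule be counted once. Caco-2, a human colorectal cancer line that forms enterocyte-like monolayers, and HT29, a human colorectal cancer line that can form mucus-secreting cells, had been seeded together 9 to 1 in the apical chamber of Transwells. There were 2 control libraries without treatment and 1 library treated with 1 ng/ml of lipopolysaccharide (LPS) of Escherichia coli O111:B4 on day 22, and all 3 co-cultures were harvested on day 23. Each library came from 1 Transwell, and each line went into every Transwell. The p-values of comparisons between cell groups thus rested on how the differences within a library varied over these 3 libraries. Those of the LPS comparisons rested on the spread between the 2 control libraries, pooled over both lines. In both, the spread of each gene was estimated with information shared across all genes tested, so small p-values do not come from these libraries' values of that gene alone.

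S100 proteins act mostly as dimers that change shape when calcium binds and then hold a partner protein, often an annexin or a part of the cytoskeleton. S100A10 is the exception, as it binds its partner ANXA2 without calcium. S100G, also called calbindin-D9k, works alone and carries calcium through the cytosol of absorptive cells, and S100A9 pairs with S100A8 as calprotectin, the metal-binding protein of neutrophils that serves in the clinic as a stool marker of gut inflammation. Most S100 genes lie together on chromosome 1, while S100P and S100G lie elsewhere.

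The 3 libraries held 5811 to 6838 barcodes, of which 4929, 5307 and 5160 were kept in control 1, control 2 and the LPS library, with a median of 5608, 4196 and 3676 UMIs. Each cell was placed in a line by the share of its UMIs on 37 genes of HT29 and 28 genes of Caco-2, lists that hold no S100 gene and no S100 partner. In this way 4121 to 4170 cells per library were Caco-2-line and 622 to 915 were HT29-line, and 118 to 188 cells with RNA of both lists were left out. From 9 to 11 barcodes were shared by any 2 libraries, and 0 of them held identical counts. Of the markers of other cell types, the myeloid TYROBP was at 0 UMIs in both lines, PTPRC reached at most 3 and the squamous KRT5 at most 1 in the cells of a line in a library. Others on the same lists were not near 0: Caco-2-line cells held 231 to 264 UMIs per library of FCER1G, 409 to 644 of CD68 and 205 to 238 of COL1A1, and HT29-line cells held 320 to 566 of KRT17 and 518 to 946 of SPRR1B. The list of 8 myeloid markers summed to 71.9 to 77.1 CPM (UMIs per 1000000 UMIs of the cells summed) in Caco-2-line cells and 1311 to 1397 in HT29-line cells, where it was mostly LYZ. The 9 squamous markers summed to 10.2 to 13.7 and 313 to 524, and the 7 fibroblast markers to 15.7 to 21.3 and 25.1 to 34.1. The part of such RNA in the S100 values was not tested.

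The reference sequence before the starts of 6 S100 genes is shown because the members that differed most between the lines are among them. S100A6, S100A4, S100A11 and S100P were higher in HT29-line cells and S100A9 and S100G in Caco-2-line cells, as described further on. The 250 bases before the RefSeq start were taken from RefSeq on GRCh38.p14, where all 10 members matched by symbol, and for S100A4, S100A6 and S100A11 this start lies inside the gene's extent in GENCODE. Capitals mark the TATA box TATAAA on the coding strand and the GC box GGGCGG on either strand, so that the GC box of S100A9 appears as its reverse complement.
S100A6 (chr1:153535992-153536241, minus strand): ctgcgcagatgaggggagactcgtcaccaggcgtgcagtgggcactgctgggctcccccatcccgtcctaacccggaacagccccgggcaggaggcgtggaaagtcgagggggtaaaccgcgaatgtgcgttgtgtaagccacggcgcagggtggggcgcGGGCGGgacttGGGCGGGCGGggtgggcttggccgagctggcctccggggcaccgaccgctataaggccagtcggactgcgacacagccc
S100A4 (chr1:153545807-153546056, minus strand): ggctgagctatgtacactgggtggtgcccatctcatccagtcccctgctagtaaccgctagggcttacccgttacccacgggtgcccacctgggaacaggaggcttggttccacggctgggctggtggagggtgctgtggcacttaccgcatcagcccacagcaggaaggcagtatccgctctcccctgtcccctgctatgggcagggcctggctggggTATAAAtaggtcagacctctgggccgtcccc
S100A11 (chr1:152037005-152037254, minus strand): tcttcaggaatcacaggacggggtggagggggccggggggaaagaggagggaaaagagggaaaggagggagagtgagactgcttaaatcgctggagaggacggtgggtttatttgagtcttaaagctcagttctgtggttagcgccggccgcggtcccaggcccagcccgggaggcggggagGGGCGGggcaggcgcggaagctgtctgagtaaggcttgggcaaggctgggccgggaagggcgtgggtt
S100P (chr4:6693628-6693877, plus strand): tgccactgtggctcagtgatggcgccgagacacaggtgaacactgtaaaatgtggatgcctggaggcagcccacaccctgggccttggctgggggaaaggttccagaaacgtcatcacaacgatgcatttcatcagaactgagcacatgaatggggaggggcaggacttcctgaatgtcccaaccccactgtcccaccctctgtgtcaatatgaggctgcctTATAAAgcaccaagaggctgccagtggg
S100A9 (chr1:153357604-153357853, plus strand): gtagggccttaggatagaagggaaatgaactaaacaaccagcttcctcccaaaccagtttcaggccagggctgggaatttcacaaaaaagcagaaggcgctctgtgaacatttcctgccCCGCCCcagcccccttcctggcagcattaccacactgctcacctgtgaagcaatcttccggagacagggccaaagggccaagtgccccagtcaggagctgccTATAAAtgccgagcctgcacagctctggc
S100G (chrX:16649908-16650157, plus strand): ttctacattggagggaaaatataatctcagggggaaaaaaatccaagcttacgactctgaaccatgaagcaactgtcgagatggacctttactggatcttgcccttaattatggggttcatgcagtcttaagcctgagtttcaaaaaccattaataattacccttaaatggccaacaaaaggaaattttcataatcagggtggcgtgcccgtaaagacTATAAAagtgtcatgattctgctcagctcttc
A TATAAA stood 31 bases before the start of S100A4, 29 before that of S100A9, 28 before that of S100P and 32 before that of S100G. These were 4 of the 10 members, and 10.7% of the 35116 promoters of this length in the table held one on either strand. S100A6 held GGGCGG 3 times, with overlap between the last pair, and 5 of the 10 members held it, against 42.6% of all promoters. The AP-1 motif TGANTCA was in 0 of the 10 members and in 6.57% of all promoters. TTTATG, a core bound by CDX factors, was in 1 member, S100A14, and in 9.64% of all. The motifs thus fell on both sides of the line difference: TATAAA in S100A4 and S100P, and also in S100A9 and S100G. Such a match describes letters and is not evidence of binding.

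Levels are given as CPM in the order control 1, control 2 and LPS. As the assay counts 1 tag per molecule, they are not divided by length. S100A6, known as calcyclin, was the most abundant member in HT29-line cells, at 19058, 15075 and 15419 CPM, against 2209, 2011 and 1921 in Caco-2-line cells. It alone took 1.91%, 1.51% and 1.54% of all UMIs of HT29-line cells. All 10 members together took 3.35%, 2.56% and 2.62% of the UMIs of HT29-line cells and 0.734%, 0.68% and 0.63% of those of Caco-2-line cells. S100A10 was the most abundant member in Caco-2-line cells, at 3016, 2685 and 2489, and its level in HT29-line cells was similar, at 3126, 2681 and 2836.

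S100A4, which binds nonmuscle myosin and is studied for its part in cell motility, stood at 5891, 3274 and 3211 CPM in HT29-line cells and at 279, 209 and 208 in Caco-2-line cells. S100A11, a partner of ANXA1, stood at 2933, 1967 and 2061 in HT29-line cells and at 453, 498 and 450 in Caco-2-line cells. For both genes control 1 was above the other libraries in HT29-line cells. S100P, which binds ezrin (EZR) and the receptor AGER, stood at 1347, 1602 and 1679 against 122, 168 and 139, with control 1 the lowest in both lines. For each of these 3 genes all HT29-line values lay above all Caco-2-line values.

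The reverse held for S100G and S100A9, both at low levels. S100G stood at 48.1, 37.6 and 36.5 CPM in Caco-2-line cells, while HT29-line cells held 3, 1 and 8 UMIs of it in all. S100A9 stood at 34.2, 22.6 and 21.2 in Caco-2-line cells, and HT29-line cells held 10, 7 and 10 UMIs. S100A14 was at 832, 838 and 728 in Caco-2-line cells and at 687, 644 and 634 in HT29-line cells, so that the lines differed little but did not overlap. S100A16 was at 137, 131 and 130 in Caco-2-line cells and at 227, 159 and 194 in HT29-line cells. S100A13, which takes part in the release of FGF1, was at 205, 199 and 180 and at 261, 184 and 203, and here the lines overlapped.

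**Figure D1:**
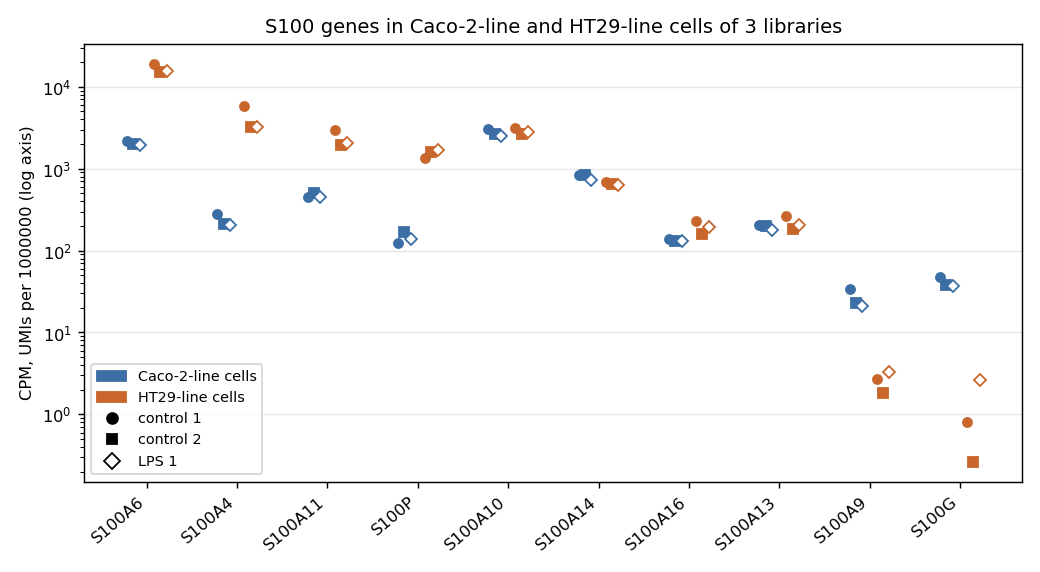
CPM (log axis) of the 10 S100 genes in Caco-2-line cells (blue) and HT29-line cells (orange), 1 symbol per library with the LPS library open. S100A6, S100A4, S100A11 and S100P sit higher in HT29-line cells, S100A9 and S100G higher in Caco-2-line cells, and S100A10, S100A14, S100A16 and S100A13 nearly level.

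In order of mean level, Caco-2-line cells held S100A10 (2730 ± 267 CPM, SD, n = 3), S100A6 (2047 ± 147), S100A14 (800 ± 61.9), S100A11 (467 ± 26.9), S100A4 (232 ± 40.8), S100A13 (195 ± 13.1), S100P (143 ± 22.9), S100A16 (132 ± 3.8), S100G (40.7 ± 6.43) and S100A9 (26.0 ± 7.15). S100P and S100A16 were neighbours whose values overlapped, and the means of S100A4 and S100A13 lay closer together than the SD of S100A4. HT29-line cells held S100A6 (16518 ± 2207), S100A4 (4125 ± 1530), S100A10 (2881 ± 226), S100A11 (2320 ± 533), S100P (1542 ± 174), S100A14 (655 ± 28.4), S100A13 (216 ± 40.1), S100A16 (194 ± 34.0), S100A9 (2.62 ± 0.738) and S100G (1.24 ± 1.25). In these cells S100A10 and S100A11, S100A13 and S100A16, and S100A9 and S100G overlapped.

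The first question was which S100 genes differ between the lines that share a Transwell. With the library as a block, edgeR's quasi-likelihood test called 5 of the 10 members higher and 3 lower in HT29-line cells, while 33.6% of the 14630 genes tested were called higher and 38.5% lower. With so many genes called, a call by itself says little, and the sizes carry the comparison. Each SE here and below was derived from the test, as the size of the log2 difference over the square root of its F. It is not the spread of the folds over libraries, which can be wider. S100A4 was 16-fold higher (log2 difference 4.0 ± 0.08, SE, adjusted p = 1.73e-22), S100P 10.0-fold (3.33 ± 0.08, adjusted p = 3.16e-21), S100A6 7.45-fold (2.90 ± 0.06, adjusted p = 1.36e-22) and S100A11 4.54-fold (2.18 ± 0.09, adjusted p = 1.17e-16). S100A16 was 1.34-fold higher (0.43 ± 0.09, adjusted p = 1.45e-04). S100G was lower in HT29-line cells at a log2 difference of -5.26 ± 0.27 and S100A9 at -3.46 ± 0.21, and S100A14 was 1.31-fold lower (-0.40 ± 0.07, adjusted p = 1.97e-05). S100A10 (-0.03 ± 0.06) and S100A13 (0.03 ± 0.09) did not pass the test. The median of the 10 members was 0.23, and the median of all genes was -0.09.

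Cells of 1 line held some UMIs of genes on the list of the other line. Whether this RNA was their own was not tested, so these values set no bound on a fold. The 37 genes of the HT29 list stood in Caco-2-line cells at a median of 2.52%, 3.43% and 3.12% of their level in HT29-line cells. The upper quartiles were 4.87%, 5.22% and 6.59%, and the highest genes stood at 37.4%, 33.8% and 36.9%. S100A4 in Caco-2-line cells was at 4.74%, 6.40% and 6.47% of its HT29-line level, close to those upper quartiles. S100P was at 9.09%, 10.5% and 8.29% and S100A6 at 11.6%, 13.3% and 12.5%, above the quartiles. The genes of the Caco-2 list stood in HT29-line cells at a median of 3.61%, 5.40% and 4.91%, with the highest at 92.8%, 106% and 92.2%. S100G stood at 1.68%, 0.702% and 7.27%, below the median in both controls. S100A9 in HT29-line cells was at 7.88%, 8.15% and 15.7%. With a stricter placement, at most 0.1 of list UMIs from HT29, S100A4 in Caco-2-line cells was at 196, 138 and 152 CPM.

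S100A4 was spread unevenly over Caco-2-line cells. The 5% of these cells with most S100A4 held 50.7%, 46.8% and 50.1% of its UMIs, against 13.8%, 18.4% and 17.0% for the corresponding 5% of HT29-line cells. Such a share also depends on the level, which differed between the lines. For S100A13, at a level near that of S100A4 in Caco-2-line cells, the share there was 19.3%, 17.8% and 20.7%. A UMI of S100A4 was found in 42.4%, 34.2% and 31.0% of Caco-2-line cells and in 96.9%, 94.5% and 92.9% of HT29-line cells. Thinned to 1500 UMIs per cell, the shares were 19.7%, 17.4% and 16.5% and 91.8%, 86.9% and 84.5%. S100A6 was found in 94.8%, 92.3% and 90.4% of Caco-2-line cells and in 99.7% to 100% of HT29-line cells, and S100P in 37.8%, 39.8% and 32.9% and in 95.5%, 92.7% and 93.1%. S100A6 and S100P were thus found in nearly all HT29-line cells, but S100P only in a part of the Caco-2-line cells at this depth.

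The partners of S100 proteins were followed as a list of 20 genes, of which 15 were tested, 9 higher and 2 lower in HT29-line cells. ANXA1, the partner of S100A11, was higher (log2 difference 5.49 ± 0.11), at 337, 356 and 321 CPM against 6.77, 8.46 and 5.73. Its level thus moved the same way as that of S100A11. SYT1 (3.0 ± 0.51), which works with S100A13, was also higher but rested on 6 to 9 UMIs per library and line. AHNAK, a scaffold bound by S100A10 with ANXA2, was higher at 1.62 ± 0.09 and ANXA2 at 1.05 ± 0.07, though S100A10 itself was not. EZR (0.73 ± 0.08), a partner of S100P, and MYH9 (0.44 ± 0.10), a partner of S100A4, were higher by less than the S100 gene. CACYBP, the calcyclin-binding protein, was lower (-0.70 ± 0.10) where S100A6 was higher, and ANXA6 was lower at -4.27 ± 0.33. ANXA11 (0.08 ± 0.09) and AGER (-0.09 ± 0.35) did not pass the test, and the median of the list was 0.44. Of the genes of calcium uptake around S100G, 2 were too low to test: the channel TRPV6 held 0 to 5 UMIs per line and library and the vitamin D target CYP24A1 held 0. ATP2B1 and VDR were not near 0. In HT29-line cells, where S100G was lower, ATP2B1 stood at 1.41, 1.24 and 1.19 times its Caco-2-line level and VDR at 1.16, 1.16 and 1.07 times.

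S100A4, S100A6, S100A9, S100A13, S100A14 and S100A16 lie in 1 stretch of chromosome 1 (GRCh38, chr1:153357854-153632039, GENCODE release 44), whose 14 protein-coding genes in the files are all S100 genes. In their order from S100A9 to S100A1, 10 of the 14 were tested, 6 were higher in HT29-line cells, 3 lower and 1 not called. Of all genes tested, 33.6% were called higher and 38.5% lower. S100A6, S100A5, S100A4, S100A3 and S100A2 are neighbours, and all 5 were higher, at log2 differences of 2.90, 4.43 ± 0.30, 4.0, 2.20 ± 0.48 and 4.63 ± 0.14. S100A2 stood at 176, 77.0 and 82.2 CPM in HT29-line cells and at 4.98, 3.11 and 4.31 in Caco-2-line cells. Beside them S100A16 was higher by 0.43, S100A14 lower at -0.40, S100A13 not called and S100A1, a gene best known from heart muscle, lower at -4.26 ± 0.18. S100A9 at the other end was lower, and between it and S100A6 lie S100A12, S100A8, S100A7A and S100A7, which were not tested because at most 6 UMIs were counted in a line and library. S100A3, which had only 16, 4 and 6 UMIs in HT29-line cells, lies within S100A4 on the same strand, so that reads of the 2 cannot be told apart in the overlap, and S100A13 and S100A1 overlap on opposite strands. Outside the stretch, S100A10 (chr1:151982915-151993859) and S100A11 (chr1:152032506-152047907) lie on the same chromosome, S100P at chr4:6693878-6697170 and S100G at chrX:16650158-16654670.

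**Figure D2:**
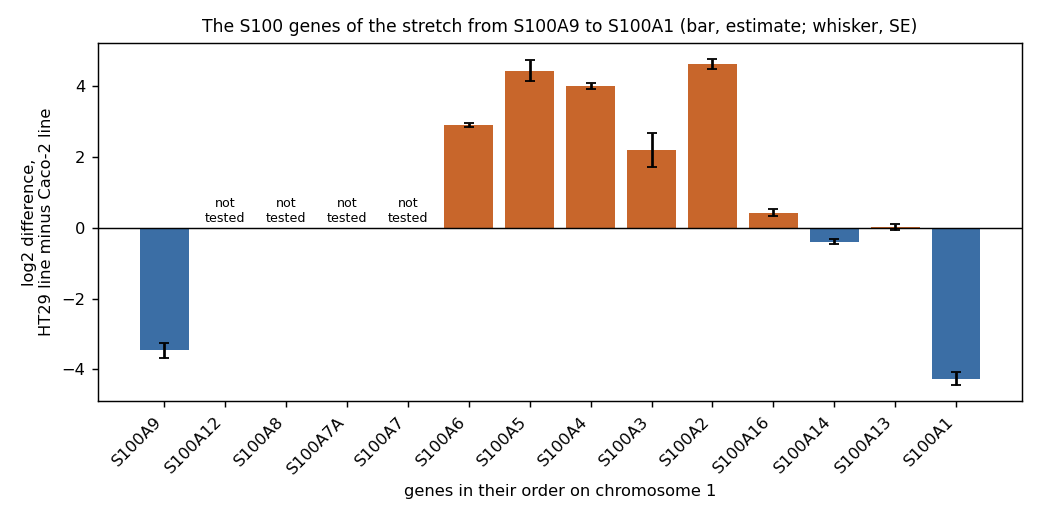
Log2 difference, HT29 line minus Caco-2 line, of the 14 protein-coding genes from S100A9 to S100A1 in their order on chromosome 1 (bars, edgeR estimate; whiskers, SE). The 5 neighbours from S100A6 to S100A2 lie between 2.20 and 4.63, S100A16, S100A14 and S100A13 lie near 0, and S100A9 and S100A1 at the ends lie at -3.46 and -4.26.

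S100A9 was found in few Caco-2-line cells and without its partner. A UMI was found in 5.78% (exact 95% interval 5.09% to 6.54%), 4.54% (3.92% to 5.22%) and 4.08% (3.50% to 4.72%) of Caco-2-line cells, and in 1.13%, 0.765% and 0.80% of HT29-line cells. The median depth was 5620, 4340 and 3693.5 UMIs in Caco-2-line and 5271, 3728 and 3542.5 in HT29-line cells, and with each cell thinned to 1500 UMIs the shares were 1.92%, 1.73% and 1.89% and 0.413%, 0.261% and 0.295%. Only 22, 15 and 17 cells, 0.528%, 0.364% and 0.408% of the Caco-2-line cells, held 5 or more UMIs of S100A9, and these held 65.5%, 52.0% and 43.8% of all its UMIs in that line. A single cell held 170 of the 955 UMIs in control 1, 71 of 487 in control 2 and 34 of 388 in the LPS library. S100A8 was at 0 UMIs in all 4167, 4121 and 4170 Caco-2-line cells, which allows a share of cells with a UMI of up to 0.072%, 0.0728% and 0.0719%.

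The cells high in S100A9 were also higher in S100A6, at 6941, 4823 and 4405 CPM against 2172, 1994 and 1904 in the other Caco-2-line cells. The trefoil factor TFF1, a secreted peptide that protects the mucosa, was at 1031, 755 and 555 against 446, 324 and 348. S100A4, S100A14, S100A16 and S100P were higher in these cells in 3 of 3 libraries, while S100G and the chemokine CCL20 were higher in some libraries and lower in others. The cells were chosen by S100A9 and few, so these values are a description without a test. Their median depth of 9960.5, 5746 and 6160 UMIs was above that of the line. The myeloid list summed to 70.6, 89.3 and 127 CPM in them and to 76.7, 77.1 and 71.6 in the others. The HT29 list summed to 494, 1267 and 864 in them and to 604, 631 and 578 in the others, so that it was higher in 2 of 3 libraries, and the part of either list was not tested.

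Enterocyte differentiation was the next axis. Caco-2-line cells of each library were ordered by the share of their UMIs on 20 enterocyte genes, such as APOA4 and FABP2, split into 5 equal groups (quintiles), and the highest quintile was compared with the lowest. Of the 10 members, 8 were higher and 2 lower in the enterocyte-high quintile, where 31.2% of the 12292 genes tested were called higher and 30.1% lower. The median of the members was 0.75 and that of all genes 0.00. S100G rose from 1.30, 0.474 and 1.46 CPM in the lowest quintile to 179, 159 and 138 in the highest (log2 difference 7.43 ± 0.17, adjusted p = 1.43e-38). Its share of cells with a UMI was 0.600%, 0.242% and 0.600% in the lowest quintile and 37.3%, 26.8% and 25.3% in the highest, and the lowest quintile held so few UMIs that the fold is only roughly known.

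S100A6 rose from 1232, 1079 and 1163 CPM to 3194, 3148 and 2776 (1.61 ± 0.10, adjusted p = 1.98e-20). S100A16 rose from 109, 93.8 and 91.8 to 159, 187 and 187 (1.06 ± 0.08), and S100A14 from 715, 667 and 636 to 949, 1126 and 877 (0.76 ± 0.09). S100P rose from 98.1, 136 and 104 to 141, 184 and 160 (0.75 ± 0.08) and was highest in the fourth quintile, at 144, 217 and 176. S100A9 rose from 6.49, 2.84 and 9.36 to 30.1, 51.9 and 20.2 (2.69 ± 0.21), but it was highest in the second quintile in control 1, at 56.3, and in the fourth in the LPS library, at 39.2. In CPM its folds were 4.64, 18.3 and 2.16, further apart than the SE shows. Of the 22, 15 and 17 cells with 5 or more of its UMIs, only 2, 7 and 2 were in the highest quintile. Those cells held 65.5%, 52.0% and 43.8% of its UMIs, so that its quintile values depended on where few cells fell. Like S100G, these 5 genes were higher in the highest quintile in 3 of 3 libraries, without overlap. The share of all genes that did so was not counted, so this describes each gene and is not a trait of the S100 genes.

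S100A11 fell from 527, 533 and 529 CPM to 328, 410 and 341 (-0.35 ± 0.08, adjusted p = 2.68e-04), and S100A13 from 262, 223 and 217 to 141, 152 and 147 (-0.45 ± 0.08). Both were lower in 3 of 3 libraries. S100A4 (0.32 ± 0.08) and S100A10 (0.33 ± 0.10) passed the test, but not in every setting. In CPM, S100A4 was at 235, 166 and 185 in the lowest quintile and at 224, 201 and 201 in the highest, with its peak of 387, 267 and 242 in the fourth. The HT29 list was also highest in the fourth quintile in these cells, at 800, 807 and 687 against 522, 504 and 505 in the lowest, and its part in the peak was not tested. Scaled by total UMIs, the log2 difference of S100A4 was 0.10 (adjusted p = 0.266) and that of S100A10 was 0.11 (adjusted p = 0.115). Both calls were also lost without control 2 (adjusted p = 0.0535 and 0.0991), and with tertiles S100A4 was at 0.52. This scaling moved the median of all genes by -0.22 and the share of higher among called genes from 50.9% to 35.0%, while the calls of the other 8 members stayed.

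**Figure D3:**
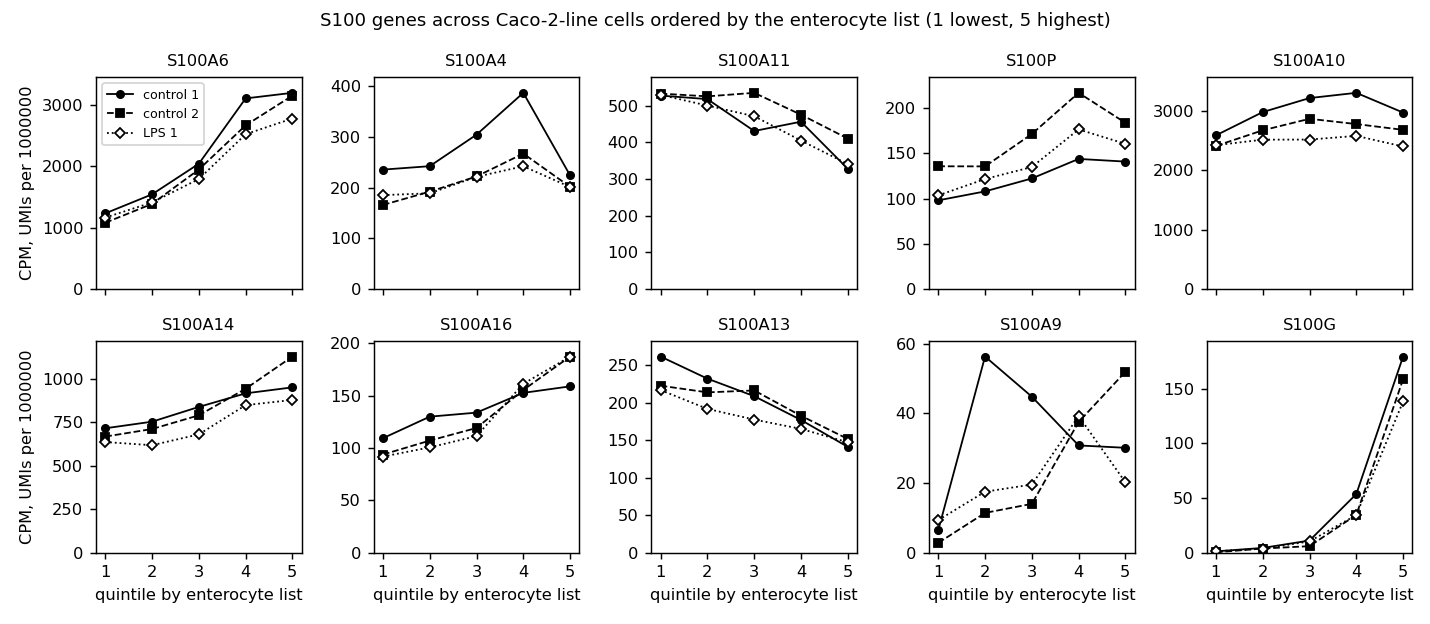
CPM of the 10 S100 genes in quintiles of Caco-2-line cells ordered by the enterocyte list (1 lowest, 5 highest), 1 line per library. S100G climbs from about 1 to between 138 and 179, S100A6, S100A14 and S100A16 climb, S100A11 and S100A13 decline, and S100A4 and S100P peak in the fourth quintile.

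Among the other S100 genes, S100A1 rose with the enterocyte list (2.37 ± 0.11), and 2 of the 3 tested were higher and 1 lower. Of the partners, 7 of 13 tested were higher and 2 lower, among them ANXA6 (1.85 ± 0.18), BSG (0.81 ± 0.08) and ANXA2 (0.24 ± 0.08), the partner of S100A10. CACYBP was lower (-0.75 ± 0.09) where S100A6 was higher, as between the lines.

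The third axis was proliferation, ordered by 20 genes such as MKI67 and TOP2A. In Caco-2-line cells 2 members were higher and 7 lower in the highest quintile, where 24.2% of the 12250 genes tested were called higher and 24.0% lower. The enterocyte list ran the other way, from 4930, 3788 and 4619 CPM in the lowest proliferation quintile to 1149, 729 and 815 in the highest. The proliferation list fell from 2013, 2474 and 2259 in the lowest enterocyte quintile to 473, 572 and 547 in the highest. The 2 orders were thus not independent, and the part of either in the differences along the other was not tested. S100A6 fell from 2651, 2185 and 2278 CPM to 1584, 1326 and 1351 (-0.88 ± 0.03, adjusted p = 5.19e-16). S100G fell from 86.2, 64.8 and 70.2 to 21.0, 9.42 and 9.65 (-2.56 ± 0.13), and S100A14 from 938, 961 and 814 to 704, 700 and 622 (-0.56 ± 0.04). S100P was lower by less, at -0.33 ± 0.07. Of 13 partners tested 2 were higher and 5 lower, with CACYBP, the partner of S100A6, higher (0.90 ± 0.07) and AGER lower (-1.28 ± 0.42). S100A11 rose from 348, 372 and 357 to 469, 508 and 470 (0.28 ± 0.05), and S100A13 from 160, 165 and 163 to 211, 211 and 191 (0.19 ± 0.06). The call of S100A13 was lost with DESeq2 (adjusted p = 0.131), without control 1 (0.0571) and without control 2 (0.0651). S100A4 was at 226, 143 and 151 in the lowest quintile and at 261, 190 and 183 in the highest (0.14 ± 0.06, adjusted p = 0.0559), with a peak of 381, 304 and 252 in the fourth, the quintile in which the HT29 list peaked in 2 of 3 libraries, at 782, 924 and 670. This value of S100A4 turned on the setting: it rose by 0.52 with tertiles (adjusted p = 7.54e-12), by 0.35 without the highest Scrublet doublet scores (8.32e-05), by 0.20 without a filter on low counts (6.92e-03) and by 0.21 without control 1 (0.0131), and without control 2 it was 0.07 and did not pass.

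S100A9 (-0.55 ± 0.18), S100A16 (-0.23 ± 0.07) and S100A10 (-0.15 ± 0.03) passed the test, but scaled by total UMIs they did not (adjusted p = 0.0533, 0.30 and 0.928), and S100A4 then rose (0.29, adjusted p = 1.88e-04). S100A9 was also lost with DESeq2 and without control 2, S100A16 with DESeq2 and without the LPS library, and S100A10 with tertiles. Scaling by total UMIs moved the median of all genes by 0.14 and the share of higher among called genes from 50.3% to 66.8%. All cells of the lowest quintile had 0 UMIs on the list and were a part of the 33.0% to 35.2% of Caco-2-line cells without one. Their median depth was 4435, 3476 and 2993 UMIs, against 8031, 6155.5 and 4767.5 in the highest quintile. Without the library as a block 4 members passed. The part of depth in these differences was not tested.

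In HT29-line cells 8 members were tested, 5 were lower and 0 higher in the highest quintile, where 3.68% of the 7609 genes tested were called higher and 2.05% lower. S100A4 fell from 6480, 3561 and 3763 CPM to 4906, 2626 and 2457 (-0.55 ± 0.05, adjusted p = 9.29e-08). S100A6 fell from 20492, 15410 and 16344 to 16228, 14126 and 13560 (-0.31 ± 0.04, adjusted p = 1.59e-05). S100P (-0.33 ± 0.06), S100A14 (-0.33 ± 0.07) and S100A11 (-0.23 ± 0.06) also fell, in 3 of 3 libraries each. With tertiles S100A4 (-0.27), S100A6 (-0.18), S100P (-0.23) and S100A14 (-0.18) fell by less and S100A11 was at -0.04 (adjusted p = 0.695), so that its fall rests on the quintiles. S100A10 (0.02 ± 0.05), S100A13 (-0.08 ± 0.12) and S100A16 (0.09 ± 0.11) did not pass the test. For all of these but S100A14 the libraries lay further apart than the quintiles, and without the library as a block 0 members passed. From 67.4% to 69.8% of HT29-line cells had 0 UMIs on the list, so that the lowest quintile is an arbitrary part of them. The HT29 list was lower in the highest quintile too, at 9566, 9198 and 8806 against 12072, 11147 and 10468 in the lowest, and its part in these differences was not tested. Leaving out 1 library left 3 or 4 calls, with S100A14 lost each time and S100A11 lost without control 1 or the LPS library, and DESeq2 called neither of these. Scaled by total UMIs S100A11 did not pass (adjusted p = 0.119). Of the partners, AHNAK alone of 10 tested was lower (-0.36 ± 0.09) and 0 were higher.

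In the quintiles S100A11 rose in Caco-2-line cells and fell in HT29-line cells, while S100A4 fell in HT29-line cells and was not called in Caco-2-line cells. The difference between the lines was tested after this had been seen. The change in HT29-line cells minus that in Caco-2-line cells was called for 5 of the 10 members, against 7.75% of 11604 genes. S100A4 (-0.67 ± 0.07, adjusted p = 2.39e-08) and S100A11 (-0.49 ± 0.07, adjusted p = 3.62e-06) were lower on this scale, and S100A6 (0.60 ± 0.05, adjusted p = 2.00e-10) fell less in HT29-line cells. S100A14 (0.26 ± 0.08) and S100A10 (0.19 ± 0.06) were called too, but not when scaled by total UMIs (adjusted p = 0.239 and 0.368). With tertiles the difference was -0.76 for S100A4, -0.44 for S100A11 and 0.45 for S100A6, and these 3 stayed past the test with tertiles and with each library left out, while S100A14 and S100A10 were lost without the LPS library. The lists order the lines over unlike ranges: the highest quintile held 4729 to 5441 CPM on the proliferation list in Caco-2-line cells and 1691 to 2047 in HT29-line cells.

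**Figure D4:**
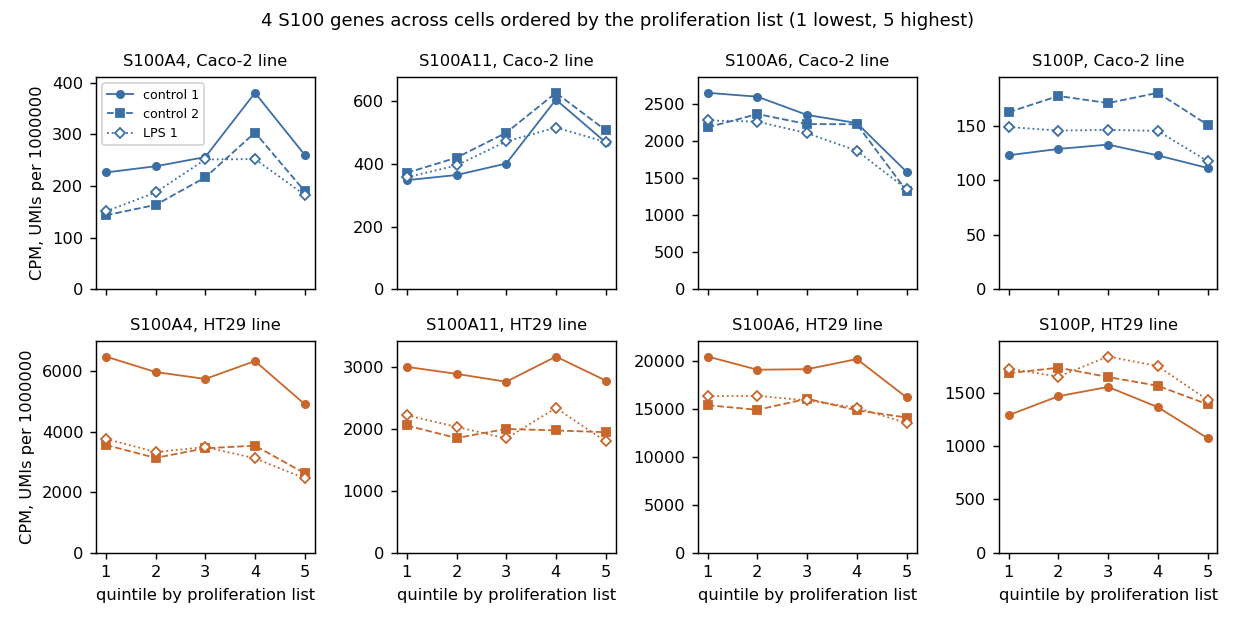
CPM of S100A4, S100A11, S100A6 and S100P in quintiles of Caco-2-line cells (top, blue) and HT29-line cells (bottom, orange) ordered by the proliferation list, 1 line per library. S100A4 and S100A11 end higher than they start in Caco-2-line cells and lower in HT29-line cells, while S100A6 declines in both.

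Goblet-list cells were HT29-line cells with at least 20 UMIs per 10000 on 6 goblet genes such as MUC2 and FCGBP, and there were 34, 48 and 36 of them. Of 8 members tested against the other HT29-line cells, 3 were lower and 0 higher, where 4.99% of the 10021 genes tested were called lower and 3.18% higher. S100A11 stood at 1391, 846 and 819 CPM in goblet-list cells and at 3031, 2024 and 2112 in the others (-1.27 ± 0.12, adjusted p = 7.71e-13), without overlap. S100A4 stood at 3818, 1568 and 2069 against 6023, 3361 and 3257 (-0.83 ± 0.12, adjusted p = 1.44e-07), lower in 3 of 3 libraries but with overlap across them. S100P stood at 1067, 1281 and 1131 against 1364, 1618 and 1701 (-0.46 ± 0.12, adjusted p = 4.94e-03), a call that DESeq2 did not make (adjusted p = 0.0724) and that was lost without control 2 or without the LPS library. S100A6 stayed high, at 17891, 14238 and 13196 (-0.18 ± 0.12, adjusted p = 0.476).

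S100A10 (-0.30 ± 0.11), S100A14 (-0.31 ± 0.13), S100A13 (-0.19 ± 0.17) and S100A16 (-0.04 ± 0.17) did not pass the test, and without control 1 S100A10 (-0.41) and S100A14 (-0.56) did. S100A9 and S100G were at 0 UMIs in goblet-list cells. Of 11 partners tested, 4 were lower and 0 higher: AHNAK (-1.33 ± 0.14), ANXA1 (-1.25 ± 0.21), ANXA2 (-0.81 ± 0.12) and EZR (-0.71 ± 0.17). They include the annexin partner of S100A11 and the ezrin partner of S100P, both genes lower in the same cells. In goblet-list cells the 9 squamous markers summed to 108, 16.3 and 42.2 CPM against 550, 328 and 372 in the other HT29-line cells, and the 8 myeloid markers to 770, 559 and 802 against 1437, 1349 and 1353. The HT29 list was higher in them, at 14857, 12789 and 12977 against 11294, 10361 and 9924. The part of these lists in the S100 differences was not tested.

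A small group of cells carried placental genes such as TFAP2C and GATA3, with 22, 38 and 10 cells. By the line lists 10, 19 and 8 of them were Caco-2-line, 0 were HT29-line, and the rest held RNA of both lists or too few list UMIs. Against the other Caco-2-line cells 2 members were higher and 5 lower, where 5.86% of the 13720 genes tested were called higher and 9.94% lower. S100A4 stood at 1825, 1048 and 681 CPM against 275, 206 and 206 (1.82 ± 0.20, adjusted p = 3.95e-17), and S100A11 at 2277, 1753 and 784 against 450, 495 and 450 (1.23 ± 0.20, adjusted p = 1.88e-08). For neither gene did the groups overlap, though the LPS value of S100A4 rests on 33 UMIs and that of S100A11 on 38. S100A6 stood at 1535, 1612 and 1423 against 2212, 2014 and 1922 (-0.94 ± 0.19, adjusted p = 1.15e-05). S100A4 and S100A6, both far higher in HT29-line cells, thus parted in these cells.

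S100G (-3.27 ± 0.64), with 2, 1 and 0 UMIs, and S100A9 (-4.21 ± 0.92), with 0, 0 and 1, were lower, and so were S100A14 (-1.01 ± 0.20) and S100A10 (-0.92 ± 0.18). In CPM, S100A10 was lower in 3 of 3 libraries but with overlap across them, and S100A14 was lower in the controls and 1.22-fold higher in the LPS library. S100A13, S100A16 and S100P did not pass the test. In the cells placed in the Caco-2 line alone S100A4 stood at 1723, 961 and 652 and S100A11 at 1812, 1376 and 719, and 7 members were again called. Without control 1 only S100A4 and S100G passed, with S100A11 at 0.83 (adjusted p = 0.329), and without control 2 only S100A4, S100A6, S100A11 and S100G. Total UMIs moved the median of all genes by 0.47 here and the share of higher among called genes from 37.1% to 69.0%, and by that scaling S100A6 was at -0.42, S100A14 at -0.50, S100A10 at -0.39 and S100A4 at 2.34, all past the test, while S100A13 also passed (0.83, adjusted p = 1.97e-04). In these cells the HT29 list summed to 2414, 2234 and 1031 CPM, against 596, 629 and 579 in the other Caco-2-line cells, and the 7 fibroblast markers to 126, 53.4 and 577. The part of either list in the S100A4 and S100A11 values was not tested. Of 15 partners tested, 8 were higher and 0 lower, with SYT1 (5.60 ± 1.12), PLAU (4.93 ± 0.72) and ANXA6 (2.03 ± 0.40) the largest, and ANXA1, the partner of S100A11, at 1.63 ± 0.55.

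Cells with enteroendocrine genes such as INSM1 and CHGA numbered 44, 50 and 7, too few in the LPS library for a test. S100A10 stood in them at 1259, 1629 and 1560 CPM, below the 2489 to 3016 of all Caco-2-line cells. S100A4 was at 111, 108 and 351, where the LPS value rests on 9 UMIs, and S100A6 at 1948, 1826 and 2613. S100A9 was at 0 and S100G at 1 UMI in all.

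**Figure D5:**
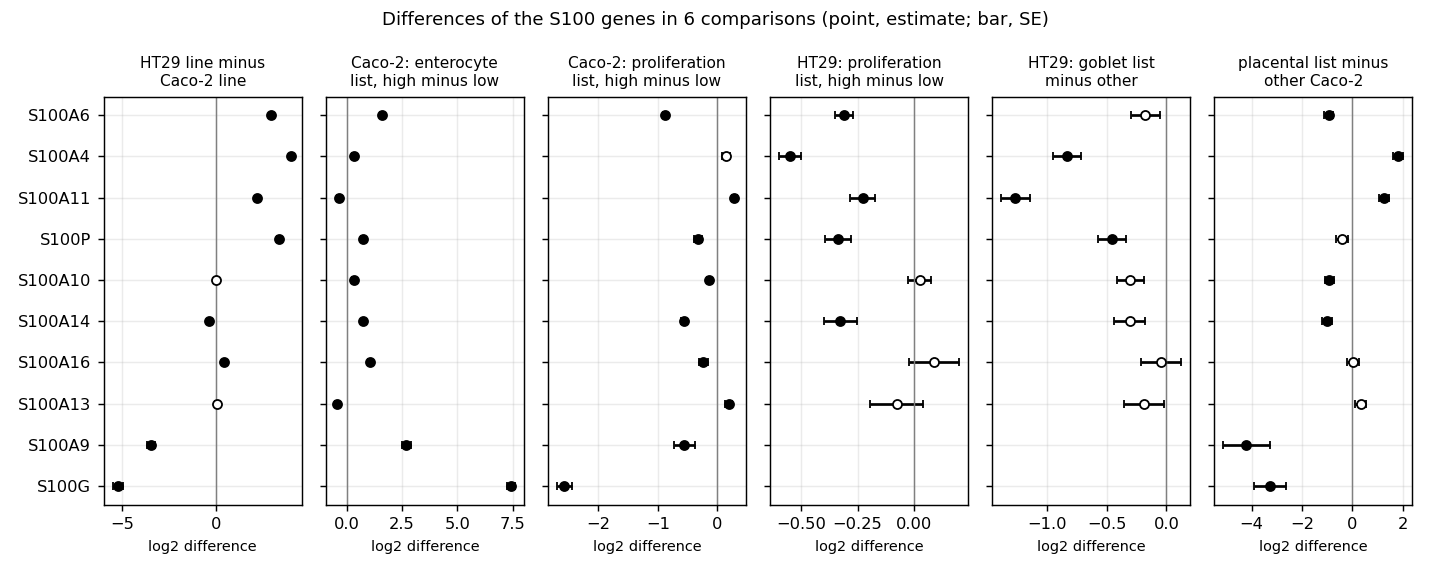
Log2 differences of the S100 genes in 6 comparisons (points, edgeR estimate; bars, SE), filled where the adjusted p was under 0.05 and open where it was not, each panel with its own scale. S100A4 lies right of 0 between the lines and in placental-list cells and left of 0 in goblet-list and proliferating HT29-line cells, while S100G spans -5.26 to 7.43.

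The LPS library was compared with the controls in a fit over both lines that assumed that the lone library varies as the controls do and took the 2 lines of a library as separate samples. It called 0 of the 10 members in Caco-2-line cells, where 0.0131% of the 15228 genes tested were called, 0 in HT29-line cells with 0.0197% called, and 0 for the difference between the lines with 0.00657% called. At an unadjusted p under 0.05 there were 0 members in Caco-2-line cells, 1 in HT29-line cells and 1 for the difference, each time S100G, and DESeq2 also called 0. With the library as a block, as both lines come from each library, the difference between the lines was again called for 0 members, and for 14 genes in all. S100G rested on 3, 1 and 8 UMIs in HT29-line cells. S100A9, the gene tied to inflammation, was at 21.2 CPM in Caco-2-line cells with LPS and at 34.2 and 22.6 in the controls (-0.52 ± 0.25, adjusted p = 0.997). This value was -0.16 without control 1 and -0.81 without control 2, with no test.

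In Caco-2-line cells the 10 differences ran from -0.52 to -0.14, with SEs of 0.15 to 0.30, and the median was -0.27 beside 0.00 for all genes. S100A6, with the most UMIs, was at -0.23 ± 0.17 in Caco-2-line and at -0.22 ± 0.17 in HT29-line cells, so a change of this size was not detectable with 1 treated library, and without control 1 the latter was -0.04. TLR4, the receptor for LPS, held 0 to 4 UMIs per line and library. In Caco-2-line cells the LPS library was the lowest of the 3 for 9 members and lay between the controls for S100P. In HT29-line cells it was the lowest for S100A4 and S100A14, the highest for S100A9, S100G and S100P, and between the controls for the others. The share of all genes with the LPS library lowest was not counted. This library also had the lowest median depth, 3676 UMIs against 5608 and 4196, and the part of depth was not tested.

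Across single cells, members were compared with all genes found in at least 5% of the cells of a line, and the measure was the lowest Pearson r of the 3 libraries, which share depth and scaling. In Caco-2-line cells S100A6 was most like TMSB10 (0.51), FXYD3 (0.42) and LGALS3 (0.42), out of 7355 genes. S100G was most like APOA4 (0.34), a gene of the enterocyte list, APOC3 (0.31) and LGALS14 (0.28). S100A11 was most like KRT18 (0.31), AGR2 (0.24) and S100A4 (0.23), and S100A4 most like S100A6 (0.31), LGALS4 (0.28), a gene of the HT29 list, and LYZ (0.27). S100A6 and LYZ were, like S100A4, higher in HT29-line cells, where LYZ held 5097, 4871 and 3942 UMIs against 1217, 912 and 659 in Caco-2-line cells. The part of HT29 RNA in these r values was not tested. S100P was most like S100A6 (0.24), TMSB10 (0.22) and LGALS4 (0.21). S100A10 was most like TMSB10 (0.26) and S100A14 most like APOC3 (0.23), and no gene reached 0.2 for S100A9, S100A13 or S100A16.

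In HT29-line cells, with 6796 genes, S100A4 was most like KRT19 (0.48), S100A6 (0.46) and CRABP2 (0.42). S100A6 was most like TMSB10 (0.49), SH3BGRL3 (0.46), a gene of the HT29 list, and S100A4 (0.46), and S100A11 most like S100A6 (0.42). S100A14 was most like S100P (0.29), S100P like RBCK1 (0.33) and S100A10 like TMSB10 (0.41). S100A13 reached 0.20 with IFI27 and S100A16 0.21 with PHLDA2. In both lines S100A6 was thus among the closest genes of S100A4, and TMSB10, which binds actin monomers, headed the lists of S100A6 and S100A10.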

How the data were processed

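The authors deposited raw UMI counts per gene and cell barcode for 2 control libraries and 1 LPS library, in matrices whose file headers name Cell Ranger 3.1.0 as the maker, and per the labels reads were aligned to GRCh38. Cells of control 1 were kept with at least 2250 UMIs and 770 genes, those of the other libraries with at least 1500 and 700, all with at most 20% mitochondrial UMIs. Kept cells were placed in the Caco-2 line where at most 0.3 of their UMIs on the line lists, and in the HT29 line where at least 0.7, came from HT29 genes. Cells between the cuts, which can be doublets, were left out, and cells with under 10 list UMIs were unplaced. From 120 to 187 cells per library lay within 0.1 of the lower cut and 36 to 69 within 0.1 of the upper. Scrublet's own threshold marked 0 cells, so an alternative removed the 6% with the highest scores.

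Goblet-list, enteroendocrine-list and placental-list cells had at least 5 UMIs on their list and at least 20, 10 and 10 per 10000, rules chosen after the distributions of the lists had been seen, with TFF3 left out of the goblet rule. Members and lists were chosen with earlier results of these data known. UMIs were summed per library and cell group and tested with edgeR 4.0.16 in R 4.3.3 (TMM scaling, filterByExpr, quasi-likelihood F-test, library as a block, Benjamini-Hochberg adjusted p under 0.05 over all genes tested). All adjusted p-values are from this test unless DESeq2 is named. The SE of a log2 difference was its absolute value over the square root of F. The LPS fit held both lines and both treatments, without a block, and the difference between the lines was refitted with the library as a block. The genes named are all 10 members, the other S100 genes and partners by count with those of known member partners and the 3 largest changes, and up to 3 genes per member with a lowest r of at least 0.2. Shares have exact Clopper-Pearson 95% intervals, and a count of 0 allows up to 3 counts, both covering counting error only. On simulated counts for the line comparison (14134 genes) 68.4% of 2-fold and 93.8% of 4-fold changes were recovered, and for the goblet-list comparison (9594 genes) 21.6% and 59.4%. The simulated spread was a fixed dispersion shared by all genes and not estimated from these data, so the real comparisons may recover other shares. The proliferation, placental-list and LPS comparisons were not simulated. DESeq2 1.42.0, RLE size factors, no filter on low counts, other cell minimums, no block, tertiles in place of quintiles and leaving out each library were tried, and total UMIs in place of TMM, a stricter line placement, placental-list cells of the Caco-2 line alone the difference of the proliferation changes and the block for the LPS difference were added after seeing the data. Other tools were Python 3.11.15, scanpy 1.11.5, numpy 2.4.6, pandas 2.3.3, scipy 1.17.1 and matplotlib 3.10.9.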

Additional observations from a re-analysis of the deposited data

Results flagged for a closer look

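The change with the proliferation list differed between the lines, by a test of that difference, for 5 S100 genes. The HT29-line change minus the Caco-2-line change was -0.67 for S100A4 and -0.49 for S100A11 and passed the test under each alternative, tertiles and each library left out included. The fall of S100A11 in HT29-line cells taken alone depended on the setting: it was -0.04 with tertiles (adjusted p = 0.695), and it was also not past the test with DESeq2, with total UMIs, without the block, without control 1 or without the LPS library. S100A4 in Caco-2-line cells was 0.14 (adjusted p = 0.0559) and was called higher with tertiles, with total UMIs, without a filter on low counts, without the highest Scrublet scores and without control 1. The difference between the lines was 0.60 for S100A6, 0.26 for S100A14 and 0.19 for S100A10, and the last pair did not pass with RLE size factors, without a filter on low counts, with total UMIs or without the LPS library. The test was added after the separate changes had been seen. The 3 libraries are the same in both lines, and the line lists move with the proliferation list in HT29-line cells, whose part was not tested.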

How the results depend on the processing

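No paired analysis was possible because the LPS and control libraries share only replicate number 1, so that the number cannot be a block between treatments. Comparisons of cell groups within libraries had the library as a block in the fit reported, and the LPS difference between the lines, refitted with that block, called 14 genes (1 in the fit reported) and again 0 members. Of 968 log2 differences of S100 genes under alternatives, 849 were counted as the same. Where the alternative had a test, this meant the same direction and the same side of the threshold. For LPS without 1 control, which had no test, it meant a change smaller than the SE, and sign was not checked. Of the others, 60 were no longer past the threshold, 17 were newly past it, 26 turned sign and 16, without a test, moved. Of 190 counts, 147 stayed within 1.5 times the value reported. The cause of the changes below was not tested.

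Each difference that turned sign had not passed the test in the fit reported. Between the lines S100A13 was -0.045 without a filter and ran from -0.057 to 0.16 when 1 library was left out, and S100A10 was 0.079 with total UMIs and ran from -0.081 to 0.012. For LPS, whole-library sums, which hold both lines and mostly Caco-2-line cells, gave 0.064 for S100P, -0.51 for S100A9 and -0.32 for S100G. The sign of S100P was unlike that in Caco-2-line cells, and those of S100A9 and S100G were unlike those in HT29-line cells. As these sums are not of 1 line, they are not a reversal within a line. S100A16 in HT29-line cells was 0.0042 with total UMIs. The difference between the lines for S100A6 was -0.0052 with DESeq2 and with RLE size factors, -0.012 with total UMIs and -0.0095 with the minimums of control 1. In HT29-line cells by proliferation S100A13 was 0.029 with tertiles and ran from -0.20 to 0.10 without 1 library. In goblet-list cells S100A16 was 0.0010 with the minimums of control 1 and ran from -0.072 to 0.022 without 1 library, and S100A13 from -0.36 to 0.028. In placental-list cells S100A16 was -0.075 with DESeq2, -0.18 in the Caco-2-line cells alone and ran from -0.49 to 0.33 without 1 library, and S100P was 0.067 with total UMIs. The proliferation difference between the lines for S100P was -0.079 with total UMIs and -0.028 without a filter and ran from -0.046 to 0.081 without 1 library.

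Counts of called genes or members moved as follows. DESeq2 called 4866 genes with the enterocyte list (7538 in the fit reported), 3008 (5904) and 149 (436) with proliferation in Caco-2-line and HT29-line cells, with 3 members in the latter, 390 (819) in goblet-list cells, 1140 (2168) in placental-list cells, 578 (899) for the proliferation difference and 8 for LPS in HT29-line cells. Without the block 4 members were called with proliferation in Caco-2-line cells, 0 members and 195 genes in HT29-line cells, and 1 member in goblet-list cells. Without a filter 5 members were called in goblet-list cells, and LPS called 28, 46 and 12 genes in Caco-2-line cells, in HT29-line cells and for their difference. LPS in HT29-line cells called 5 genes with RLE size factors and with total UMIs, 6 with the minimums of control 1 and 8 without the highest Scrublet scores, which gave 2 for the difference, and whole-library sums called 11. The proliferation difference called 1708 genes with tertiles and 485 to 696 genes and 3 to 4 members without 1 library (899 and 5 in the fit reported), and 3 members with RLE size factors and with total UMIs, and placental-list cells of the Caco-2 line gave 1440 genes. Leaving out 1 library gave 8 members and 9675 to 9749 genes between the lines, 8 to 10 and 6334 to 6936 with the enterocyte list, 7 to 9 and 4909 to 5215 and, in HT29-line cells, 3 to 4 and 233 to 256 with proliferation, 2 to 5 and 512 to 641 in goblet-list cells, and 2 to 8 and 667 to 2273 in placental-list cells. The stricter line placement put S100A4, S100A6 and S100A11 in Caco-2-line cells at means of 162, 1738 and 421 CPM. Thinning lowered the shares of cells with a UMI, as given in the text.

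Total UMIs moved the median of all genes by 0.11 between the lines and by -0.10 for the proliferation difference, where the share of higher among called genes went from 59.4% to 40.4%. In HT29-line cells by proliferation that share went from 64.2% to 77.7%, and to 77.2% with DESeq2, which gave 50.3% against 38.9% in goblet-list cells and 51.7% against 37.1% in placental-list cells. Leaving out a control leaves the LPS comparison without residual degrees of freedom, so those fits gave values only, and alternatives for enteroendocrine-list cells were not run.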
